A study of Rattus norvegicus with 14 samples.

Results

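Hmgcs1, Idi1, Fdps, Fdft1, Sqle, Lss, Insig1 and Srebf2 were followed in colonocytes of rats on diets with a normal (NPD) or a high (HPD) share of protein. These 8 genes of cholesterol synthesis and its control were found by gene name among the probes that are not controls, and all 8 were on the array. They had 9 of the 30367 probes and were 8 of the 26276 gene names, and only Fdps had more than 1 probe. The animals were young male Wistar rats, an outbred strain, fed ad libitum for 15 days on isocaloric diets that gave 14% (NPD) or 55% (HPD) of the energy as protein. The colon was perfused with a buffer containing EDTA, and the epithelial cells that came off were collected. RNA of 7 NPD and 7 HPD rats was hybridised to 1-colour Agilent arrays, 1 array per rat, so that each value stands for a separate animal. Samples that the authors removed as outliers were not analysed here.

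Cells make cholesterol from acetyl-CoA through mevalonate, isoprenoids and squalene. Hmgcs1 is the synthase that makes HMG-CoA near the start of the route, and Idi1 turns isopentenyl diphosphate into its reactive isomer. Fdps joins such units into farnesyl diphosphate, Fdft1 joins farnesyl diphosphate into squalene, Sqle oxidises squalene and Lss closes the ring to lanosterol. Srebf2 encodes SREBP-2, the transcription factor that drives these genes when membrane sterols are low, and Insig1 holds the SREBP precursors in the endoplasmic reticulum when sterols are plentiful. Insig1 is itself a gene that SREBPs raise. Colonocytes are short-lived, and sterol synthesis supplies the membranes of the cells that replace them.

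The sequences before the start sites are shown because SREBP is known to act beside NF-Y, a factor that binds the CCAAT box. RefSeq promoter sequences of the build GRCr8, from 250 bases before to 50 bases after a start site, were matched by symbol for 6 of the 8 genes. Those of Sqle and Fdft1 were not used here. The letters CCAAT occurred on either strand in all 6, against 37.5% of the 33469 promoters of that length. The sterol regulatory element, searched as TCACNCCAC on both strands, occurred exactly in 0 of the 6 and in 1.12% of all promoters. With up to 1 mismatch it occurred in 3 of the 6, Fdps, Insig1 and Srebf2, and in 23.7% of all. The GC box, searched as GGGCGG on both strands, occurred in 5 of the 6 and in 33.1% of all. In these 6 promoters no match to the sterol element overlapped a CCAAT match. A match is a run of letters and not a measured binding site, and whether matches go with the levels was not tested. The 210 bases before each start site follow, 5′ to 3′ on the strand of the gene, with CCAAT or its reverse complement in capitals. They lie at chr2:53382094-53382303 (plus strand), chr17:66547525-66547734 (minus strand), chr20:12118231-12118440 (minus strand), chr7:115543097-115543306 (plus strand), chr2:176804817-176805026 (minus strand) and chr4:8057770-8057979 (minus strand) of GRCr8.
Hmgcs1: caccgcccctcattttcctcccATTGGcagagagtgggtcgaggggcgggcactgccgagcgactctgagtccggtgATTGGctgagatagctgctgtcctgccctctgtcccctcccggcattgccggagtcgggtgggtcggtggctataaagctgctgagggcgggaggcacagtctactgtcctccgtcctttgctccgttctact
Idi1: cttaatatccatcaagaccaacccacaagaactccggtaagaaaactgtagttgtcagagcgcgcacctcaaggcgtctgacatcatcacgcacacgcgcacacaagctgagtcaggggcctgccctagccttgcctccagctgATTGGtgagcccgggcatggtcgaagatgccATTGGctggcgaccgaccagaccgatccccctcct
Lss: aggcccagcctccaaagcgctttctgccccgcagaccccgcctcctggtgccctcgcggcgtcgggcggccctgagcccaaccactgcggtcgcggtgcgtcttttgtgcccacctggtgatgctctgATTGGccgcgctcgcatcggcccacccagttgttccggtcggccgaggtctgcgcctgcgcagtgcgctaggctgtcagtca
Srebf2: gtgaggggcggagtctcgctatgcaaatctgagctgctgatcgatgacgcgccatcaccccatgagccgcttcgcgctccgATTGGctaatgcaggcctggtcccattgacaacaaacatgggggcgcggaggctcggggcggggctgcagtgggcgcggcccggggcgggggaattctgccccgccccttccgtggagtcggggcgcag
Fdps: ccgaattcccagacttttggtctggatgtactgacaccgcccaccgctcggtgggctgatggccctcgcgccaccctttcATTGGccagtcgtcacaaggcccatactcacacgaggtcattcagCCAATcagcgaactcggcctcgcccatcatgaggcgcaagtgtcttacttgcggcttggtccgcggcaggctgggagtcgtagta
Insig1: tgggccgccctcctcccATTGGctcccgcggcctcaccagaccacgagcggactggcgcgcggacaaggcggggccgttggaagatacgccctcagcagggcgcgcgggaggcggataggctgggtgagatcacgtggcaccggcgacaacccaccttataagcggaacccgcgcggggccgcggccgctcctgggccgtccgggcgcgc

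In Hmgcs1 and Idi1 both CCAAT matches read on the strand opposite to the gene, the nearest beginning 133 bases before the start in Hmgcs1 and 35 bases before it in Idi1. Fdps held 1 match on each strand, and Lss, Srebf2 and Insig1 held 1 match each, at 82, 129 and 193 bases before the start. In Srebf2 a run with 1 mismatch to the sterol element, tcaccccat, began 156 bases before the start, upstream of its CCAAT match.

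Each value below is a level on the log2 scale relative to the median probe of its array, computed from the scanner signal after background subtraction, so that 1 unit is a doubling. All 9 probes were well above background and below saturation on all 14 arrays. In the header's build rn4 the probes of Hmgcs1 (chromosome 2, 51754514 to 51754573), Idi1 (chromosome 17, 72557223 to 72557282) and Fdft1 (chromosome 15, 42425389 to 42425448) are placed by the scanner files, as are those of Sqle (chromosome 7, 96111693 to 96111752) and Lss (chromosome 20, 12507646 to 12507705). Insig1 (chromosome 4, 2578292 to 2578348) and Srebf2 (chromosome 7, 120580150 to 120580209) are placed likewise, and no annotation of exons or UTRs of that build was used. Of the 2 slides that carried the arrays, each a separate scanner run, slide 1 and slide 2 were shared by the diets, with 4 NPD and 3 HPD arrays on slide 1 and 3 NPD and 4 HPD arrays on slide 2. At a q-value below 0.1, a limma model with both terms called 12164 of the 30367 probes for slide. All 7 absorptive cell markers (Epcam, Cdh1, Vil1, Krt8, Krt20, Slc26a3, Car1) passed the scanner's background mark on all 14 arrays. Of the other cell types, all 5 goblet markers, Muc2 among them, and all 5 enteroendocrine markers also passed on every array by their brightest probe. So did 4 of the 5 stromal and muscle markers, 2 of the 5 immune, 2 of the 4 stem and cycling and 1 of the 3 red blood cell markers. Cd3e and Cd79a of lymphocytes passed on 3 and 4 arrays and the stromal Col3a1 on 1. In cells taken in bulk, fewer cells of a type and less RNA per cell cannot be told apart.

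Among the early enzymes, Hmgcs1 had a level between 7.30 and 8.86 (median 8.09) in the NPD rats and between 8.01 and 8.58 (median 8.49) in the HPD rats. The groups overlapped, because the 2 highest rats of all, NPD 5 and NPD 6, were on the NPD and the 3 lowest, NPD 2, NPD 1 and NPD 7, were too. The log2 fold change of Hmgcs1 was 0.35 (95% interval -0.13 to 0.83, limma adjusted p = 0.515), and 6 of 7 HPD rats lay above the NPD mean. Idi1 ranged from 5.06 to 6.54 (median 5.84) in the NPD rats and from 5.89 to 6.55 (median 6.04) in the HPD rats. Its log2 fold change was 0.34 (-0.11 to 0.80, limma adjusted p = 0.506), with all 7 HPD rats above the NPD mean.

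Fdps stood apart from these by its brighter probe. Its brighter probe (chromosome 2, 181170192 to 181170336) ranged from 5.89 to 6.82 (median 6.72) in the NPD rats and from 5.55 to 7.18 (median 6.28) in the HPD rats. The HPD values held both the highest rat, HPD 1, and the lowest rat, HPD 6, of all 14. The log2 fold change was -0.29 (-0.78 to 0.20, limma adjusted p = 0.542). The dimmer Fdps probe (chromosome 2, 181168650 to 181168691) ranged from 5.89 to 6.65 on the NPD and from 6.06 to 6.83 on the HPD, and had a log2 fold change of 0.10 (-0.23 to 0.42, limma adjusted p = 0.758). The probes of this gene therefore differed in sign, with both intervals spanning 0.

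Fdft1 and Sqle, the enzymes that make squalene and begin its conversion, had fold changes close to that of Hmgcs1. Fdft1 ranged from 6.33 to 7.43 (median 6.75) in the NPD rats and from 6.48 to 7.55 (median 7.22) in the HPD rats, with a log2 fold change of 0.35 (-0.06 to 0.77, limma adjusted p = 0.471). Sqle ranged from 5.79 to 7.22 (median 6.59) in the NPD rats and from 6.47 to 7.17 (median 6.90) in the HPD rats. The log2 fold change of Sqle was 0.34 (-0.16 to 0.83, limma adjusted p = 0.515), and NPD 2, NPD 1 and NPD 7 were again its 3 lowest rats. For Lss the levels were 2.56 to 3.54 (median 3.11) on the NPD and 3.13 to 3.36 (median 3.24) on the HPD. All 7 HPD rats lay above the NPD mean of Lss, but the log2 fold change was only 0.14 (-0.16 to 0.43, limma adjusted p = 0.626).

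The regulators differed from each other in sign. Srebf2 ranged from 6.07 to 7.03 (median 6.65) in the NPD rats and from 6.37 to 7.05 (median 6.98) in the HPD rats, a log2 fold change of 0.21 (-0.13 to 0.55, limma adjusted p = 0.531). Insig1 ranged from 3.47 to 5.23 (median 4.66) in the NPD rats and from 2.92 to 5.40 (median 3.85) in the HPD rats. Of the 7 HPD rats, 6 lay below the NPD mean of Insig1 and HPD 1 was the highest of all 14. The log2 fold change of Insig1, -0.67 (-1.45 to 0.10, limma adjusted p = 0.467), was larger in size than that of any other member.

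**Figure D1:**
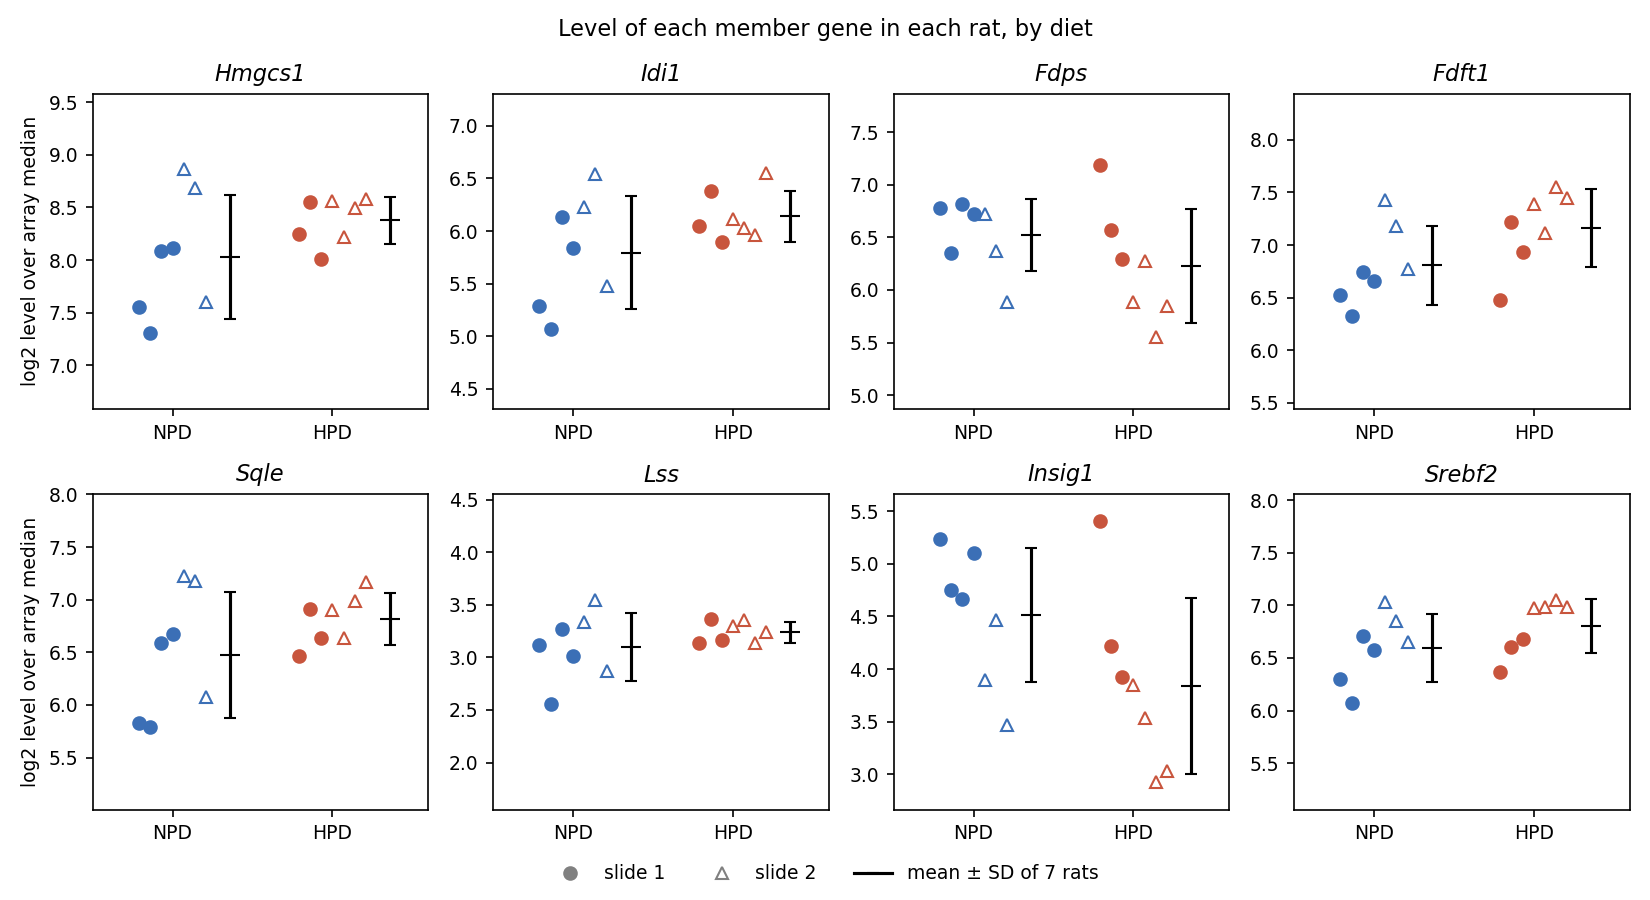
Level of each member gene in each rat (y axis, log2 relative to the median probe of the array, 3 units in every panel) on the NPD and the HPD (x axis), with filled circles for slide 1, open triangles for slide 2 and bars for the mean ± SD of 7 rats. In all 8 panels the diets overlap, and for Hmgcs1, Idi1, Sqle and Lss the NPD rats are spread more widely than the HPD rats.

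Thus 6 of the 8 genes had a higher mean on the HPD and 2, Insig1 and Fdps by its brighter probe, a lower mean. The Fdps probes were close in level, with means of 6.52 (brighter) and 6.30 (dimmer) on the NPD and 6.23 and 6.40 on the HPD. The choice between them therefore sets the direction of that gene. The median log2 fold change of the 8 genes was 0.27. That median was 0.13 with normexp, 0.12 in the authors' own table and 0.07 with normexp and slide as a block, an alternative chosen after seeing the data. Over all probes tested 64.2% had a higher mean on the HPD, with a median log2 fold change of 0.11 over all probes and 0.13 over the brightest of 10 equal bins of signal, which holds 5 of the 8 genes. limma called 0 of the 8 genes at a q-value below 0.1, against 17 of 30367 probes (0.056%). The paper, also with limma at this cut-off, reports many more differentially expressed genes, and the cause of that difference was not tested. No member had an unadjusted p under 0.05, against 11.4% of all probes. In exact two-sided permutation tests over all 3432 splits of the rats, p for the 9 probes ranged from 0.102 (Fdft1) to 0.528 (the dimmer Fdps probe), where the smallest p possible was 0.00058. When arrays were regrouped only within slides (1225 regroupings), the exact two-sided permutation p was lowest for Fdft1 (0.0661) and Insig1 (0.0767). Normexp background correction gave 0 called members, where 16.9% of all probes were called, and normexp with slide as a block gave 1, Insig1 (log2 fold change -0.61, limma adjusted p = 0.0764), where 27.9% of all probes were called. The interval of every member spanned 0, which does not show that the diets act alike.

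The slide term passed for 4 of the 9 member probes, and it passed for 40.1% of all probes, so the members were near the share over the whole array. Insig1 was lower on slide 2 than on slide 1 by a log2 difference of -1.09 (limma adjusted p = 0.00504 in the fit of diet and slide) and the brighter Fdps probe by -0.57 (adjusted p = 0.0289 in the same limma fit). Fdft1 was higher on slide 2 by 0.53 (limma adjusted p = 0.0109) and Srebf2 by 0.44 (limma adjusted p = 0.00839). For Hmgcs1, Sqle, Idi1, Lss and the dimmer Fdps probe the slide term did not pass. With slide as a block, the log2 fold changes by diet were 0.29 for Hmgcs1, 0.28 for Sqle, 0.30 for Idi1, 0.28 for Fdft1 and -0.52 for Insig1, and again 0 of the 8 genes were called, against 0.0889% of all probes.

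Within slides the enzymes differed. On slide 1 the HPD mean of Hmgcs1 exceeded the NPD mean by 0.51 on the log2 scale, on slide 2 by 0.08. The same differences were 0.53 and 0.08 for Idi1 and 0.45 and 0.10 for Sqle, while for Fdft1 (0.31 and 0.25), Srebf2 (0.14 and 0.15) and Insig1 (-0.42 and -0.61) both slides gave similar sizes. The brighter Fdps probe gave 0.01 on slide 1 and -0.43 on slide 2. Whether the slides differ in the effect of diet was not tested. NPD replicate 2 was the rat with the lowest Hmgcs1, Sqle, Idi1, Fdft1, Srebf2 and Lss. Leaving it out lowered the log2 fold change of Hmgcs1 from 0.35 to 0.23 and of Fdft1 from 0.35 to 0.27. That of Sqle and Idi1 went from 0.34 to 0.22, of Srebf2 from 0.21 to 0.12 and of Lss from 0.14 to 0.05. Without HPD replicate 1 that of Insig1 was -0.93 (limma adjusted p = 0.144) and that of Fdps went from -0.29 to -0.45, and without HPD replicate 6 that of Fdps was -0.18. Without NPD replicate 6 that of Lss was 0.21.

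**Figure D2:**
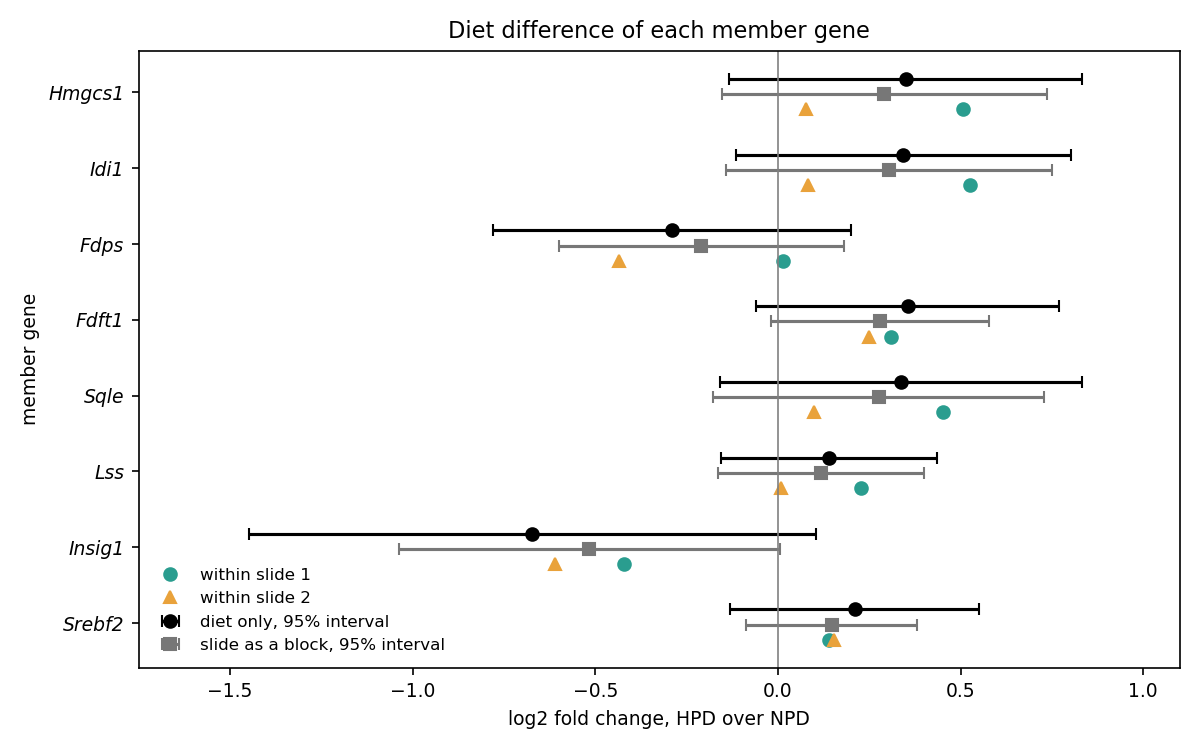
Log2 fold change, HPD over NPD (x axis), of each member gene (y axis), with circles for the fit of diet alone and squares for the fit with slide as a block (bars are 95% intervals) and coloured points for the difference of means within slide 1 and within slide 2. All intervals span 0, and Insig1 and Fdps, drawn by its brighter probe, lie to the left. For Hmgcs1, Idi1 and Sqle the point of slide 1 lies at 0.45 to 0.53 and that of slide 2 at 0.08 to 0.10.

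Levels were also compared between rats, and Hmgcs1, Sqle and Idi1 varied together over the 14 rats. Of the 28 pairs of members, 19 had a Pearson correlation with an adjusted permutation p under 0.05 and 15 had a Spearman correlation that passed. Among the Pearson pairs that passed, Insig1 with Fdft1 (r = -0.78), Insig1 with Srebf2 (-0.76) and Fdps with Fdft1 (-0.59) had an r below 0. The share of passing pairs among other genes was not computed. For Hmgcs1 and Sqle, r was 0.97 (adjusted permutation p = 0.00014) and rho was 0.93 (adjusted permutation p = 0.00028). For Hmgcs1 and Idi1, r was 0.91 (adjusted permutation p = 0.00014) and rho was 0.87 (adjusted permutation p = 0.00084). Fdft1 and Srebf2 had an r of 0.91 (adjusted permutation p = 0.00014) and a rho of 0.87 (adjusted permutation p = 0.00084). The raw p of 1e-05 behind the first of these is the smallest that 100000 permutations can give. Leaving out the 2 rats farthest from the median of the first gene gave an r of 0.94 for Hmgcs1 and Sqle, 0.81 for Hmgcs1 and Idi1 and 0.87 for Fdft1 and Srebf2.

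Slide and diet contribute to such correlations, so they were computed again after the mean of each slide and diet was subtracted. For Hmgcs1 and Sqle, r was then 0.95 (permutation within slide and diet, adjusted p = 0.024) and for Hmgcs1 and Idi1 it was 0.88 (permutation, adjusted p = 0.0241). Of the 28 pairs, 7 passed in Pearson's r and 4 in Spearman's rho. Among Hmgcs1, Sqle, Idi1, Fdft1, Lss and Srebf2, a grouping made after the values were seen, all 15 pairs had an r above 0 both before (0.64 to 0.97) and after the subtraction (0.56 to 0.95). Without the 2 rats farthest from the median of the first gene, these 15 values of r ranged from 0.31 to 0.94 before the subtraction. After it they ranged from 0.48 to 0.95. Within slide 1 alone the 15 values of r ranged from 0.72 to 0.97 and within slide 2 alone from 0.39 to 0.98, over 7 arrays each. Over the 7 NPD rats they ranged from 0.78 to 0.99 and over the 7 HPD rats from 0.08 to 0.89, a difference that was not tested.

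Insig1 and the brighter Fdps probe formed a pair of their own. Their r was 0.86 (adjusted permutation p = 0.00033) and rho was 0.87 (adjusted permutation p = 0.00084), and r was 0.70 after the slide and diet means were subtracted (permutation, adjusted p = 0.1). Insig1 ran against Fdft1 with an r of -0.78 (adjusted permutation p = 0.00324) and a rho of -0.81 (adjusted permutation p = 0.003). It ran against Srebf2 with an r of -0.76 (adjusted permutation p = 0.00324) and a rho of -0.79 (adjusted permutation p = 0.00329). After the subtraction these were -0.34 and -0.23, neither past the threshold (permutation, adjusted p = 0.522 for both). As given above, the slide term passed for Fdft1, Srebf2, Insig1 and the brighter Fdps probe. The part of slide in these correlations was not tested. The dimmer Fdps probe correlated with the brighter one (r = 0.66, and 0.88 after the subtraction, as a description). It was closer to Hmgcs1 (0.56 and 0.71) than the brighter probe was (-0.11 and 0.49). With Insig1 the dimmer probe had 0.31 and 0.49, against 0.86 and 0.70 for the brighter probe.

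**Figure D3:**
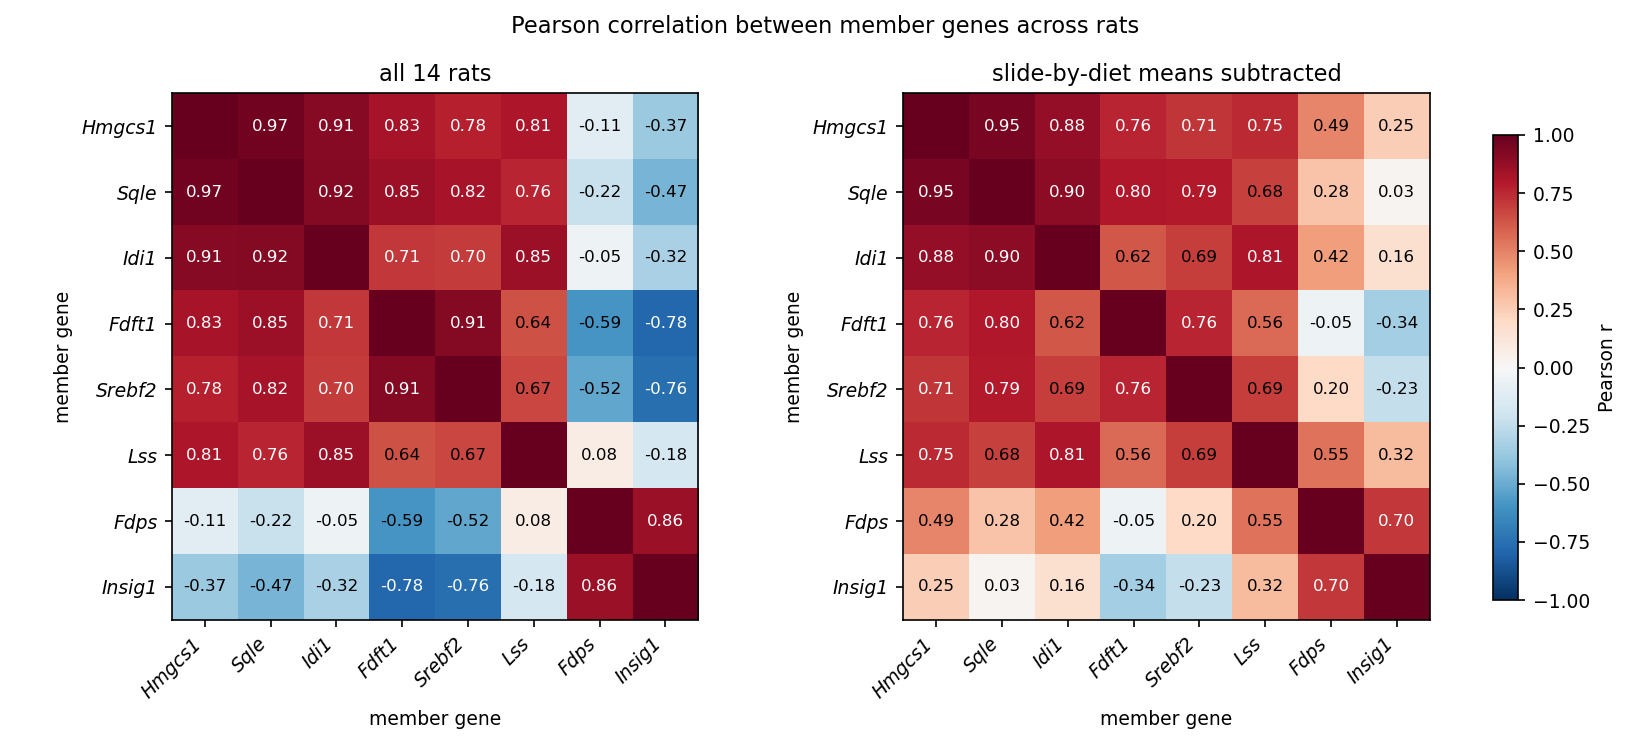
Pearson correlation between member genes over the 14 rats (colour and printed value, both axes list the genes), on the left as measured and on the right after the mean of each slide and diet was subtracted. Hmgcs1, Sqle, Idi1, Fdft1, Srebf2 and Lss form a block with values of 0.56 or more in both panels. Insig1 and Fdps, drawn by its brighter probe, correlate with each other at 0.86 and 0.70.

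**Figure D4:**
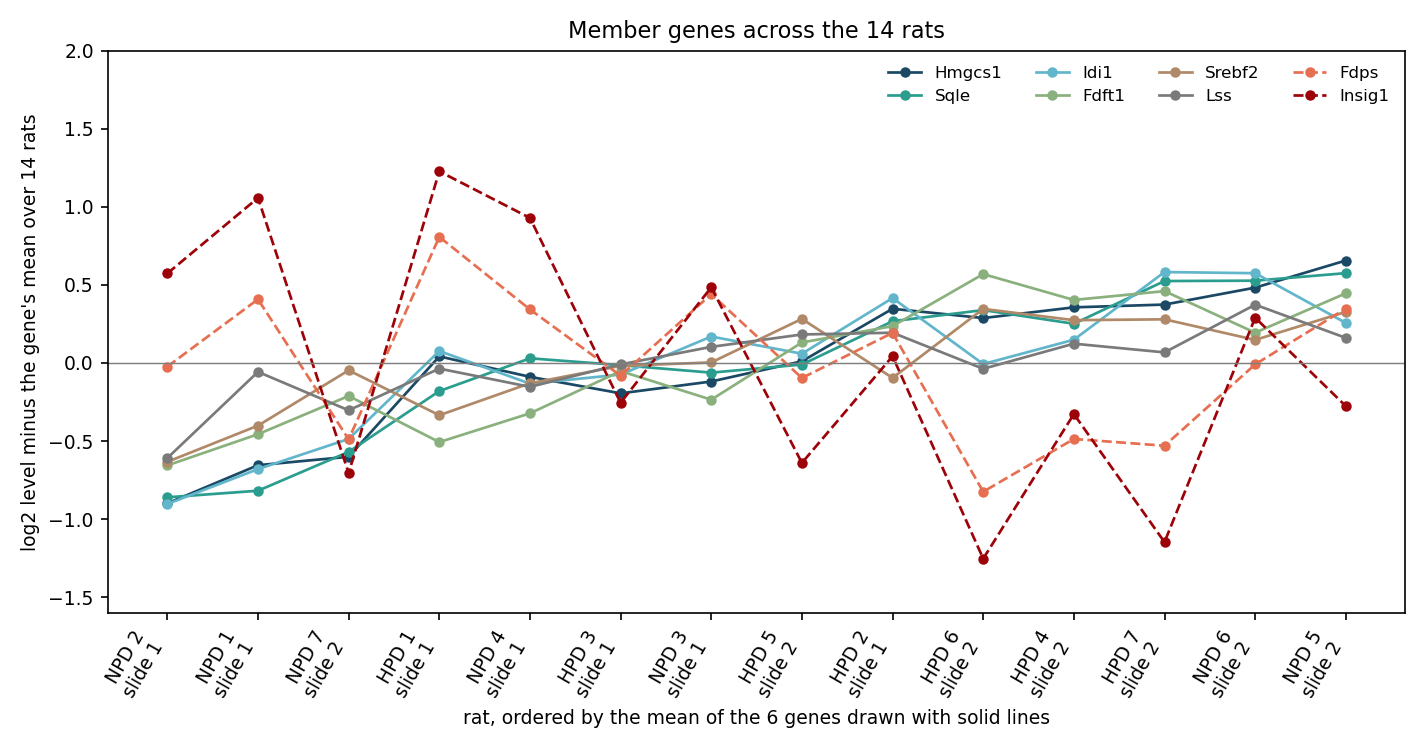
Level of each member gene in each rat relative to the mean of that gene over the 14 rats (y axis, log2 units), with rats (x axis) ordered by the mean of the 6 genes drawn as solid lines. The solid lines climb together from NPD 2, NPD 1 and NPD 7 on the left to NPD 6 and NPD 5 on the right, with HPD rats between. The dashed lines of Insig1 and Fdps, drawn by its brighter probe, follow another order.

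Ordered by the mean of those 6 genes, NPD rats took the 3 lowest places (5.52, 5.77 and 5.91) and the 2 highest (6.66 and 6.68), and the HPD rats lay between 6.12 and 6.66. The SD over 7 rats was 0.59 on the NPD and 0.22 on the HPD for Hmgcs1, 0.60 and 0.24 for Sqle, 0.54 and 0.24 for Idi1 and 0.32 and 0.10 for Lss. For Fdft1 it was 0.38 on the NPD and 0.37 on the HPD. For Srebf2 it was 0.32 and 0.26, and for the dimmer Fdps probe 0.29 and 0.26. It was the lower on the NPD for Insig1, at 0.63 and 0.84, and for the brighter Fdps probe, at 0.34 and 0.54. These spreads are descriptions, picked out after the values were seen.

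Measures of the arrays were set beside the members, giving 16 relations. The median net signal of an array was between 146 and 205 on the NPD and between 122 and 158 on the HPD. It correlated most strongly with the level of Fdft1, at r = -0.68 (rho = -0.65, permutation, raw p = 0.00934 and adjusted p = 0.13 for r). It correlated with that of Hmgcs1 at r = -0.58 (rho = -0.54, permutation, adjusted p = 0.13 for r) and with that of Insig1 at r = 0.55 (rho = 0.48, permutation, adjusted p = 0.139 for r). After slide and diet means were subtracted these 3 values of r were -0.39, -0.19 and 0.06, and 0 of the 16 relations passed before or after. Before the subtraction, r with the net signal was also below 0 for Sqle (-0.58), Idi1 (-0.57), Lss (-0.50) and Srebf2 (-0.50) and above 0 for Fdps (0.42). For each member the sign of r was opposite to that of its log2 fold change by diet. The subtraction also removes the part of the net signal that goes with diet. The bearing of that part on the diet contrast was not tested. The mean levels of the 7 marker lists gave 56 relations with the members, with r between -0.53 and 0.62, and 0 of them passed (lowest adjusted permutation p = 0.413). The value of 0.62 was that of Insig1 with stromal and muscle markers. By diet, the median log2 fold changes of these lists were 0.06 (absorptive), -0.18 (immune), -0.35 (goblet), 0.09 (red blood cell), -0.27 (cycling and stem), 0.07 (muscle and stromal) and -0.08 (enteroendocrine), and limma called 0 of their genes. Their part in the members' values was not tested further.

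The genes whose pattern was most like that of the members were sought among 15302 other genes well above background on all 14 arrays, by Pearson's r with the mean level of the 8 members after slide and diet means were subtracted. The first was Msmo1 (r = 0.93), which removes methyl groups from the sterol ring, and the second was Mvd (r = 0.92), the decarboxylase that makes isopentenyl diphosphate. The third (r = 0.89) was LOC681458, which the file names as similar to stearoyl-coenzyme A desaturase 3 and RefSeq lists as Scd3. The fourth was Stx17 (r = 0.88), a SNARE protein of autophagosomes, and the fifth was probe A_64_P086187 (r = 0.88), which has no gene name. Further sterol genes followed, with Hsd17b7 at rank 11 (r = 0.84), Cyp51 at rank 21 (r = 0.80) and Dhcr7 at rank 47 (r = 0.75). The desaturase Scd was at rank 13 (r = 0.83) and Srebf1, which encodes the SREBP of fatty acid synthesis, at rank 116 (r = 0.68). Of the 14 genes ranked from the mevalonate and later sterol lists, these 5 (Msmo1, Mvd, Hsd17b7, Cyp51 and Dhcr7) came first. Mvk (536), Ggps1 (686), Ebp (927), Sc5d (1082), Nsdhl (1549) and Tm7sf2 (2100) had lower ranks. Far below them were Dhdds (rank 6448, r = 0.11), Lbr (rank 7186, r = 0.07) and Pmvk (rank 7973, r = 0.03). The fatty acid genes were spread likewise, from Scd and Acly (rank 76, r = 0.71) through Acaca (295) and Fasn (343) to Elovl6 (9401), Fads2 (11449) and Acss2 (rank 13547, r = -0.33). These correlations over 14 arrays describe likeness and carry no p.

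The rest of the route was described by 6 lists with 46 genes, of which 43 were on the array. Of these 43, 25 had a higher and 18 a lower mean on the HPD, the median log2 fold change was 0.03, and limma called 0. Unadjusted p was under 0.05 for 4 of the 43, and the corresponding share of all probes is 11.4%. In the mevalonate list 3 of 5 genes had a higher mean (median 0.12), Mvd among them at 0.14. Pmvk, the kinase before Mvd in the route, was at 4.64 to 5.06 (median 4.82) on the NPD and at 4.14 to 5.20 (median 4.44) on the HPD. Its log2 fold change was -0.38 (-0.71 to -0.06, limma unadjusted p = 0.0235, adjusted p = 0.417).

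From squalene to cholesterol, 6 of the 9 genes listed had a higher mean on the HPD, with a median of 0.26. The values were 0.38 for Cyp51, which demethylates lanosterol, 0.36 for the sterol reductase Tm7sf2, 0.30 for Hsd17b7, 0.29 for Msmo1 and 0.26 for the isomerase Ebp, and close to 0 for the reductase Dhcr7 (0.01). The other 3 had a lower mean, with -0.21 for Nsdhl, -0.11 for Lbr and -0.08 for Sc5d. None had an unadjusted limma p under 0.05. Of the 7 genes of SREBP control, 4 had a higher mean (median 0.02). Scap, which escorts the SREBP precursors, was at 0.02, and Mbtps1 and Mbtps2, the proteases that release them, were at -0.04 and 0.17.

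In the list of sterol uptake and traffic, 4 of 6 genes had a higher mean (median 0.03), with 0.11 for the intestinal sterol importer Npc1l1 and 0.05 for the lipoprotein receptor Scarb1. Npc2, which carries cholesterol out of lysosomes, was at 4.95 to 5.36 (median 5.21) on the NPD and 4.62 to 5.33 (median 4.80) on the HPD, a log2 fold change of -0.29 (-0.57 to -0.01, limma unadjusted p = 0.0432, adjusted p = 0.432). In esterification and efflux, 3 of 8 genes had a higher mean (median -0.13). Soat1, which esterifies cholesterol for storage, ranged from -1.43 to -0.79 (median -1.22) on the NPD and from -1.88 to -1.23 (median -1.69) on the HPD. All 7 HPD rats lay below its NPD mean, with a log2 fold change of -0.49 (-0.79 to -0.20, limma unadjusted p = 0.00264, adjusted p = 0.417). Soat1 lay below the median probe of the array, and its log2 fold change was -0.08 (unadjusted p = 0.147 in limma) with normexp and -0.14 (unadjusted p = 0.0673 in limma) in the authors' table with slide as a block. The efflux pumps Abca1 and Abcg1 were at -0.23 and -0.14, while Abcg8 was well above background on 0 arrays, Soat2 on 2 and Abcg5 on 5.

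Fatty acid synthesis is driven by the sister factor Srebf1, whose own log2 fold change was 0.26. Here 5 of 8 genes had a higher mean on the HPD (median 0.14). Acly, which makes cytosolic acetyl-CoA for both routes, ranged from 7.37 to 8.20 (median 7.83) on the NPD and from 7.76 to 8.44 (median 8.27) on the HPD. Its log2 fold change was 0.38 (0.06 to 0.71, limma unadjusted p = 0.023, adjusted p = 0.417), and 0.24 with normexp (unadjusted p = 0.0767 in limma). Scd was at 0.37, Acaca at 0.32 with all 7 HPD rats above the NPD mean, and Acss2, which makes acetyl-CoA from acetate, at -0.52 (-1.10 to 0.06, limma adjusted p = 0.455).

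**Figure D5:**
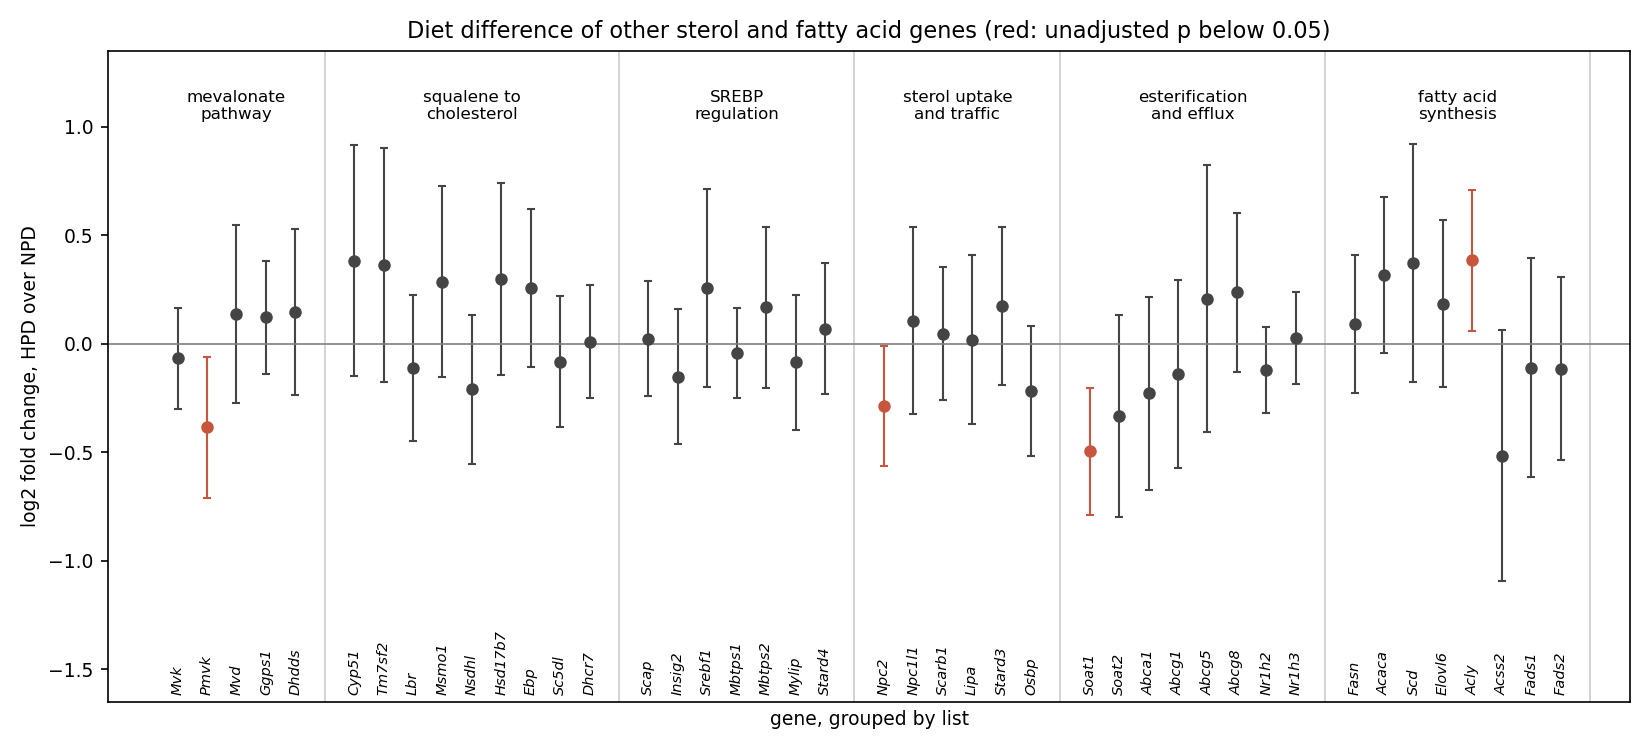
Log2 fold change, HPD over NPD, with 95% intervals (y axis) for the 43 other genes of sterol and fatty acid metabolism on the array, grouped by list (x axis). Red points have an unadjusted p below 0.05 (Pmvk, Npc2, Soat1 and Acly, of which only Acly is above 0), and none has a q-value below 0.1.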

How the data were processed

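RNA of colonocytes from 7 NPD and 7 HPD rats was measured on 1-colour arrays, and samples were grouped by their labels. The authors deposited the scanner output (Agilent Feature Extraction 10.7.3.1), with a linear intensity for every spot, and a table of 26414 rows of normalized log2 values. The centring statistic and signal column behind that table are not given in the sources used here. Columns of other samples numbered 0.

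Control spots and spots marked as outliers (320 to 461 per array) were removed. Signals after background subtraction were put on the log2 scale, averaged over the spots of a probe and centred on the array median. HPD and NPD were contrasted in limma 3.58.1 (R 4.3.3, data.table version 1.17.8), using lmFit and eBayes without covariates and a q-value below 0.1 after Benjamini-Hochberg adjustment over all 30367 probes. The brightest probe stood for a gene. Dim probes were kept, although only 18398 passed the background mark on all arrays of a diet. The 7 arrays per group limit the precision. The fit was also run on simulated data in which probes varied independently and no slide effect was added, so that run does not cover slide effects.

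Exact permutations, and correlations with 100000 permutations, were computed in Python 3.11.15 with numpy 2.4.6, pandas 2.3.3 and scipy 1.17.1. Correlations used the brightest probes, with p adjusted over the 28 pairs. Genes named are the members, genes of the lists (with values where the unadjusted p was under 0.05), and the 5 genes most like the members in pattern. Other list genes, named for their place in the route, were chosen with their values seen. The members and lists were chosen with earlier results of these data known. Marker lists covered absorptive, goblet, enteroendocrine, cycling and stem, red blood, immune, and muscle and stromal cells. Some genes of the pathway are not reported here. Gene names come from the array's own annotation.

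Alternatives were the median or mean pixel signal, normexp (offset 50), centring on the 75th percentile, quantile and cyclic loess normalization, a filter on dim probes, the authors' own table, the replicate number or the slide as a block, a trend in eBayes, the mean of a gene's probes, a q-value below 0.05 and leaving out each array. Centring on the median over spots, and slide as a block with normexp or cyclic loess, were chosen after seeing the data.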

Additional observations from a re-analysis of the deposited data

How the results depend on the processing

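Over 31 fits, limma called 0 of the 8 genes at a q-value below 0.1, with 1 exception. Normexp with slide as a block, chosen after seeing the data, called 1 member, Insig1 (log2 fold change -0.61, adjusted p = 0.0764), in a fit that called 8479 of the 30367 probes, and there Lss turned to -0.0072. All other directions were kept, but the sizes moved. Over the 31 fits the log2 fold change ranged from 0.15 to 0.49 for Hmgcs1, 0.13 to 0.46 for Sqle, 0.17 to 0.47 for Idi1, 0.15 to 0.47 for Fdft1, 0.012 to 0.28 for Srebf2, -0.45 to -0.10 for Fdps (the latter with its probes averaged) and -0.93 to -0.51 for Insig1. The median of the members, 0.27, was lower with normexp (0.126), in the authors' table (0.119), in that table with slide as a block (0.0836) and with normexp and slide as a block (0.0734). Leaving out each array in turn, the median of the members ranged from 0.17 (without NPD replicate 2) to 0.35 (without NPD replicate 5), with 0 members called each time. Of the 43 other genes, normexp called 3 (Pmvk, Npc2 and Nr1h2, all lower on the HPD), the authors' table blocked by slide called 4 (Pmvk, Insig2, Npc2 and Scarb1, all lower) and normexp with slide as a block called 4 (Pmvk, Npc2, Nr1h2 and Acss2, all lower), against 0. Over all probes, normexp called 5142 and the authors' table blocked by slide 2767 of its 26414 rows, against 17, 27 with slide as a block, 40 with cyclic loess and slide as a block and 151 without HPD replicate 1. Leaving out other arrays gave 9 to 28. The causes were not tested. The replicate numbers were not taken to pair the rats: same-numbered arrays correlated above 0.1 in 6 of 7 pairs (0.10 to 0.66) and at -0.15 in number 4, the pair that spans both slides, and 1 of 7 NPD arrays correlated best with the HPD array of its own number. With the replicate block 0 members were called (8 probes over all, median of the members 0.27, adjusted p for Insig1 0.178). All 9 probes were well above background on all 14 arrays.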

Other observations

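Some listed genes have several probes, and for a few of them a dimmer probe had an unadjusted limma p under 0.05 where the brightest probe did not. For Insig2, the relative of Insig1, the dimmer probe gave -0.57 on the log2 scale (adjusted p = 0.417 in limma) and the brightest -0.15. For the fatty acid elongase Elovl6 these were -0.49 (limma adjusted p = 0.427) and 0.18, so that the sign differed. The dimmer Mbtps2 probe had 0.74 but was well above background on only 2 arrays.

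Among the goblet markers the log2 fold changes were spread widely, from -0.63 for Agr2 to 1.82 for Spink4 (adjusted p = 0.417 for both in limma). The brightest Muc2 probe was at 0.01, while its dimmer probes, both well above background on all 14 arrays, were at 0.50 (all 7 HPD rats above the NPD mean, limma unadjusted p = 0.00411, adjusted p = 0.417) and 0.76 (6 of 7, limma unadjusted p = 0.0164, adjusted p = 0.417).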
